A study of Mus musculus with 2 samples.

Results

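The drug-metabolizing cytochrome P450 genes of families 1 to 3 were examined in the liver of apoE-KO mice. The members were taken by name: every array gene whose symbol begins with Cyp1, Cyp2 or Cyp3, followed by a subfamily letter and a number. This rule gave 43 genes of 27962 gene names on the array, of which 3 belonged to family Cyp1, 34 to family Cyp2 and 6 to family Cyp3, and these were represented by 66 probes. All 43 genes entered the comparison through at least 1 probe that was well above background on every array of at least 1 diet, and 59 of the 66 probes met that condition. On all 6 arrays 40 of the 43 genes were well above background, and the others, Cyp1a1, Cyp1b1 and Cyp2s1, entered through the high-Chol diet alone.

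Cytochrome P450 enzymes are haem proteins that insert an oxygen atom into their substrate with electrons from NADPH. Those of families 1 to 3 lie in the endoplasmic reticulum, chiefly of hepatocytes, and handle drugs and other foreign compounds beside steroids, fatty acids and bile acids. Many of them are induced through ligand-activated receptors, the aryl hydrocarbon receptor for family Cyp1 and the nuclear receptors CAR and PXR for the Cyp2b, Cyp2c and Cyp3a subfamilies, and in the mouse several differ between males and females.

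All mice were male apoE-KO mice on the C57BL/6 background, so that both groups lacked apolipoprotein E, the ligand that clears lipoprotein remnants from plasma. From 10 weeks of age they were given normal chow, or the same chow with 1.25% Chol (the high-Chol diet), for 1 week. Cy3-labelled cRNA from liver was hybridised to Agilent whole mouse genome arrays, 3 per diet. Nothing in the labels ties an array to a particular animal, and the p-values measure the spread between these arrays alone.

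The 3 normal chow arrays and high-Chol replicate 1 shared slide 1, which was read by version 9.5 of the scanner software, while high-Chol replicates 2 and 3 lay on slide 2, read by version 9.1. The 75th percentile of the raw signal was 271 to 374 on slide 1 and 762 to 799 on slide 2, and 50.5% to 67.2% of spots were well above background. All values below are log2 signals relative to the 75th percentile of their own array, and every difference is the high-Chol diet minus normal chow on that scale. The disrupted gene, Apoe, had log2 signals of 3.31, 1.66 and 3.81 in normal chow, against 3.20, 3.18 and 3.56 on the high-Chol diet. Since the labels do not say which part of the gene was removed, this probe does not check the genotype. Of 10 hepatocyte markers all were measured, 9 had a difference below 0 and 0 passed the limma test, with a mean log2 level of 7.37 to 7.62 in normal chow and 7.06 to 7.26 on the high-Chol diet. Of 10 macrophage markers 9 were measured, all 9 had a difference above 0 and 3 rose, with a mean log2 level of 2.46 to 2.73 in normal chow and 3.52 to 3.66 on the high-Chol diet. In whole liver, fewer cells of a type and less RNA per cell cannot be told apart.

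Some probes of related P450 genes share much of their sequence. Positions are those of the array annotation on mouse build mm7, with coordinates of the whole probe, and all sequences run 5′ to 3′. Tested probes of 4 genes from different Cyp2 subfamilies, chosen after their letters were seen, could be aligned over 17 bases, of which 10 were the same in all 4, written TTNNANCCNGNNCANTT where N is any base. Searched on both strands, these letters were found in 11 of all 41174 non-control probes (0.0267%). Among them were 5 of the 66 P450 probes, namely the 4 from which the letters were taken and a second Cyp2d9 probe that overlaps the first. The matching window is in capitals.
Cyp2c29, chr19:39222926-39222985, plus strand: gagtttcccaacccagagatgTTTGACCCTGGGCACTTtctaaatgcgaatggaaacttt
Cyp2d9, chr15:82540797-82540856, plus strand: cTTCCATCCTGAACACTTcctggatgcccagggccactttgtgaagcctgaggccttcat
Cyp2e1, chr7:137190949-137191008, plus strand: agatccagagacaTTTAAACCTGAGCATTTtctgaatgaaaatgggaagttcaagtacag
Cyp2j11, chr4:95690233-95690292, minus strand: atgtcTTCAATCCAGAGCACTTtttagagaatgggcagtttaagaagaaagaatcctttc

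Some pairs within a subfamily could be laid over each other for longer stretches, and those shown were picked for it. Probes of Cyp2c54 (chr19:39941403-39963984, minus strand, with the ends of the probe far apart in the genome) and Cyp2c40 (chr19:39680672-39696310, minus strand, likewise) could be laid over each other for 46 bases, of which 38 were identical. The bases that differ are in capitals.
Cyp2c54: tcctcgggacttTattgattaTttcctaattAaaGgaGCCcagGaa
Cyp2c40: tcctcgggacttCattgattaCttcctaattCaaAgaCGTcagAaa
Probes of Cyp2a4 (chr7:23212199-23212258, plus strand) and Cyp2a5 (chr7:23212221-23212279, plus strand) were identical at 35 of 38 overlapping bases. A stretch of 30 of these bases, 27 of them identical, is shown with the differing bases in capitals.
Cyp2a4: aggacacTTCgtagacttgcagaggatatt
Cyp2a5: aggacacAGAgtagacttgcagaggatatt
The probes through which Cyp2a4 and Cyp2a5 were tested share 20 bases of the genome, and those of Cyp3a41 and Cyp3a44 start 323 bases apart, so each pair was placed at a single locus. The annotation of 11 of the 66 probes lists a RefSeq transcript of another gene. Among the probes used for the tests this held for 7 genes: Cyp2a4, Cyp2a5, Cyp2b9, Cyp2b13, Cyp2c40, Cyp2d9 and Cyp3a11. Signals of these 7 cannot be assigned to the named gene alone.

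Over the 43 genes, the difference between the diets ranged from -0.86 for Cyp2g1 to a fitted 1.16 for Cyp1b1, which was not above background in normal chow, with a median of -0.21, against a median of -0.02 over all 16730 genes tested. The difference was below 0 for 29 of the 43 genes (67.4%), and for 52.2% of all genes. With limma and Benjamini-Hochberg adjustment over all genes at 0.05, 1 of the 43 genes, Cyp1b1, was called higher (2.69% of all genes were) and 0 were called lower (0.227% of all genes were). Cyp1b1 entered through the high-Chol diet alone, the diet on which it was higher, and its call is given as a description. Its limma adjusted p was 0.106 without the filter on dim probes, it is left out by the filter requiring all 6 arrays, and with normexp background correction it was at -0.69 (limma adjusted p = 1). At an unadjusted limma p under 0.05, 1 P450 gene was higher, beside 12.3% of all genes, and 9 were lower (20.9%), beside 8.83% of all genes. These 9 were Cyp2b13, Cyp2c65, all 5 Cyp2d genes, Cyp2f2 and Cyp2j6. When slide was blocked, only Cyp2b13 of the 9 had an unadjusted limma p under 0.05.

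Counted by size, Cyp2c66 was over 1.5-fold higher on the high-Chol diet, where 15.4% of all genes were, and Cyp1b1, over that size as fitted, has a bound of only 1.2-fold. A further 6 (Cyp2b13, Cyp2c65, Cyp2d9, Cyp2d22, Cyp2g1 and Cyp2j6) were over 1.5-fold lower, that is 14% of the members beside 5.84% of all genes, whereas with normexp it was 6.98% beside 10.9%. The arrays of both diets did not overlap for 10 genes: Cyp1b1 and Cyp2c66 lay wholly higher on the high-Chol diet, where 11.6% of all genes did, and 8 (18.6%) lay wholly lower, where 13.7% of all genes did. Scaled to the median of each array instead of its 75th percentile, the median of all genes became -0.26, 36 of the 43 genes were below 0 and 15 were over 1.5-fold lower, beside 16.6% of all genes. With slide as a block in limma, which sets high-Chol replicate 1 against the normal chow arrays of its own slide, the median of the 43 genes was -0.10 and that of all genes -0.06. The block changed the sign of 10 of the 43 differences and moved 23 others by over 1.5 times.

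**Figure D1:**
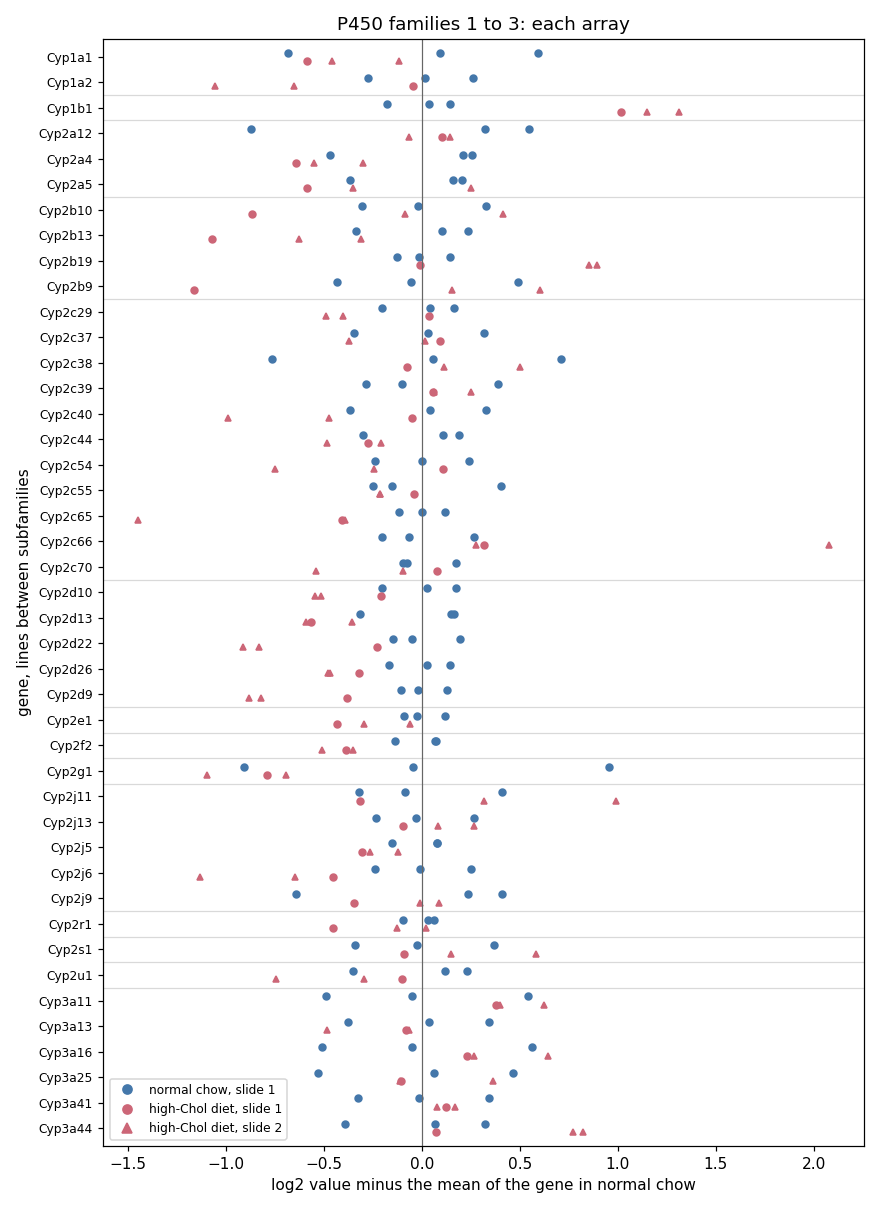
Log2 value of each P450 gene on each of the 6 arrays, minus the mean of that gene over the 3 normal chow arrays (x axis), with genes on the y axis grouped by subfamily. Blue circles are normal chow and red symbols the high-Chol diet, circles for slide 1 and triangles for slide 2. All 5 Cyp2d genes, Cyp2c65, Cyp2f2 and Cyp2j6 have every red symbol to the left of every blue one, as did 13.7% of all genes. For Cyp2d10 the gap is very small. Cyp2c66 and Cyp1b1 have every red symbol to the right, as did 11.6% of all genes. Cyp1b1 was not above background in normal chow.

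**Figure D2:**
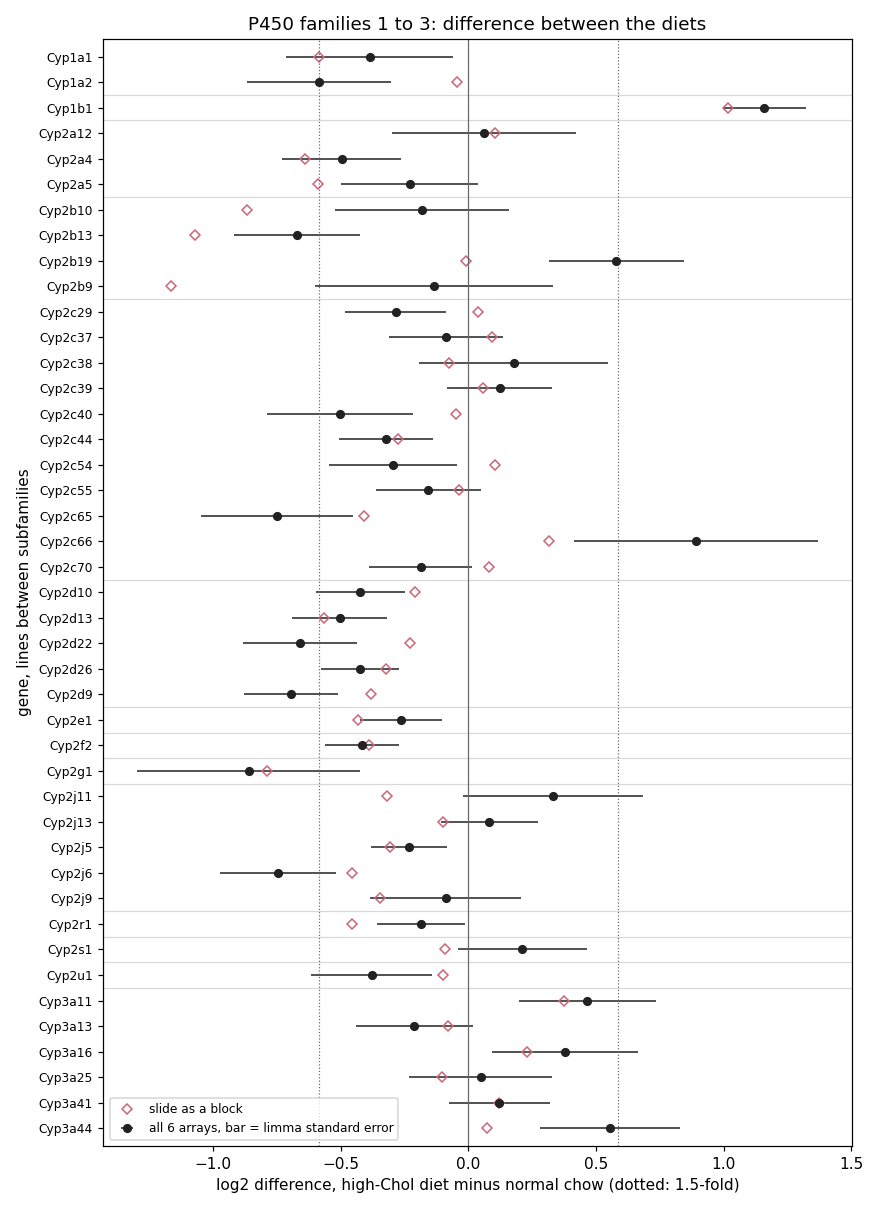
Log2 difference between the diets for each of the 43 P450 genes (x axis), black points with the limma standard error as a bar, and the difference with slide as a block as open red diamonds. Dotted lines mark 1.5-fold. Differences run from -0.86 to a fitted 1.16 for Cyp1b1, which was not above background in normal chow, and the diamonds of Cyp2b9, Cyp2b10 and Cyp2b13 lie far to the left of their points.

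Family Cyp1 holds the classical targets of the aryl hydrocarbon receptor. Cyp1b1, which acts on oestrogens and polycyclic aromatic compounds and is found mainly outside the liver, had log2 signals of -5.63, -5.41 and -5.31 in normal chow, against -4.43, -4.14 and -4.30 on the high-Chol diet. All 3 high-Chol arrays lay above all 3 normal chow arrays, at the dim end of the scale. The probe was not well above background on any normal chow array, so that Cyp1b1 could enter the test only through the diet on which it was higher, and its normal chow level is a bound. On the background-subtracted scale, measured against the lowest signal that was well above background, the bound for Cyp1b1 was 1.2-fold. It does not hold with normexp, where the difference was -0.69. The limma adjusted p on the first scale was 0.0166 (n = 3 arrays per diet). The fitted difference of 1.16 is not an exact size, and because of the way Cyp1b1 entered, this p does not support a rise.

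The Cyp1b1 call was sensitive to how the dim signal was treated. Before background subtraction its mean spot signal was 77.9, 69.5 and 68.5 in normal chow, against 77.1, 113 and 104 on the high-Chol diet, so that high-Chol replicate 1 did not exceed the highest normal chow array. With normexp the fitted difference was below 0, as given above. With slide as a block it was 1.02 (limma adjusted p = 0.179), and without any 1 array other than high-Chol replicate 1 the limma adjusted p was 0.0558 to 0.0929. The other Cyp1b1 probe was not well above background on any array. The probe tested lies at chr17:78002920-78002979, minus strand, and its first 30 bases are shown because the call rests on it.
Cyp1b1: actacattaagcagatagatcaccatgtat

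Cyp1a1 and Cyp1a2, the hepatic members of the family, oxidise polycyclic aromatic hydrocarbons and aromatic amines. Cyp1a2 had log2 signals of 5.59, 5.30 and 5.84 in normal chow, against 5.53, 4.52 and 4.92 on the high-Chol diet. High-Chol replicate 1 lay within the normal chow range and the other two below it. The difference of -0.58 ± 0.28 (limma adjusted p = 0.277) was just under 1.5-fold, and it was -0.04 with slide as a block. Without high-Chol replicate 1 it was -0.85 with a limma adjusted p of 0.0449. Leaving out this array puts each diet on a slide of its own, where an effect of either cannot be told apart, and 3945 of all genes then passed the test, against 488 with all arrays.

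Cyp1a1 was dim, with log2 signals of -3.66, -2.89 and -2.38 in normal chow, against -3.56, -3.44 and -3.09 on the high-Chol diet. The diets overlapped, with a difference of -0.39 ± 0.33 (limma adjusted p = 0.495) that became -0.73 without normal chow replicate 1 and -0.09 without normal chow replicate 3, and 2 of the 3 normal chow arrays were well above background. The core of the sequence that the aryl hydrocarbon receptor binds, GCGTG on either strand, occurred in the 250 bases before the start of Cyp1a1 and Cyp1b1 and not in those of Cyp1a2 (RefSeq, build GRCm38.p6). It was present for 5 of the 36 P450 genes that had a promoter entry and in 28.2% of all 32851 promoters. The window of Cyp1b1, the only member called, is chr17:79715062-79715311, minus strand, with the core in capitals.
Cyp1b1 promoter: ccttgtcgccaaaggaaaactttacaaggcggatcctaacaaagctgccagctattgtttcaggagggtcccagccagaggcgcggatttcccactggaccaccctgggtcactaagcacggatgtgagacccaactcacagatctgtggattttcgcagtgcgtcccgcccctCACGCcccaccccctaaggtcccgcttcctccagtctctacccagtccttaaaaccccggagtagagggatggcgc

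The Cyp2a enzymes hydroxylate coumarin and testosterone, and Cyp2a4 is known as a female-predominant gene of mouse liver. Cyp2a4 had log2 signals of 7.68, 8.40 and 8.35 in normal chow, against 7.50, 7.59 and 7.84 on the high-Chol diet. The lowest normal chow array lay among the high-Chol arrays, and the difference was -0.50 ± 0.23 (limma adjusted p = 0.265). Cyp2a5, whose tested probe shares part of its target with that of Cyp2a4, had a difference of -0.23, and Cyp2a12 had one of 0.06.

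The Cyp2b genes are the standard readout of CAR, and Cyp2b9 and Cyp2b13 are female-predominant. Cyp2b13 had log2 signals of 0.10, 0.23 and -0.34 in normal chow, against -1.08, -0.63 and -0.32 on the high-Chol diet. One high-Chol array reached the lowest normal chow array, and the difference of -0.67 ± 0.25 did not pass the test (limma adjusted p = 0.198). Cyp2b10 had log2 signals of -0.66, -0.31 and -0.94 in normal chow, against -1.50, -0.72 and -0.22 on the high-Chol diet. The high-Chol arrays lay on both sides of the normal chow arrays, with a difference of -0.18 ± 0.34 (limma adjusted p = 0.772) that turned to 0.16 without high-Chol replicate 1. Its other probe, well above background on all 6 arrays, gave -0.68.

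Over all arrays Cyp2b9 had a difference of -0.14 (limma adjusted p = 0.88). The tested Cyp2b13 probe lists transcripts of Cyp2b9 and Cyp2b10, and that of Cyp2b9 lists Cyp2b10, so these genes are not independent measurements. High-Chol replicate 1 was the lowest of the 6 arrays for Cyp2b9, Cyp2b10 and Cyp2b13. With slide as a block, which uses this array alone for the diet, the differences were -1.16 for Cyp2b9, -0.87 for Cyp2b10 and -1.07 for Cyp2b13, none with a limma adjusted p below 0.310. The fourth gene, Cyp2b19, which is known from skin, had a difference of 0.58 on all arrays and one of -0.0092 under the slide block. It was at 0.88 (limma adjusted p = 0.0136) without high-Chol replicate 1, when diet was not separable from slide.

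The Cyp2c subfamily was the largest, with 11 genes, and includes epoxygenases of arachidonic acid. The differences of its genes ranged from -0.75 to 0.89 with a median of -0.19, 8 of 11 were below 0 and 0 passed the limma test. Under the slide block 5 of the 11 were below 0, with a median of 0.04. Cyp2c29, a main hepatic member, had log2 signals of 7.13, 7.38 and 7.50 in normal chow, against 7.38, 6.85 and 6.93 on the high-Chol diet. High-Chol replicate 1 equalled the middle normal chow array, and the difference was -0.28 ± 0.20 (limma adjusted p = 0.414).

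Cyp2c70, the enzyme that makes muricholic acids from chenodeoxycholic acid in the mouse, had log2 signals of 7.80, 7.55 and 7.53 in normal chow, against 7.70, 7.08 and 7.52 on the high-Chol diet. The diets overlapped, and the difference was -0.19 ± 0.20 (limma adjusted p = 0.599). Under the slide block Cyp2c29 was at 0.04 and Cyp2c70 at 0.08.

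The genes of this subfamily farthest from 0 were Cyp2c65 and Cyp2c66, which are known from the intestine and were dim here. Cyp2c65 had log2 signals of -2.40, -2.28 and -2.17 in normal chow, against -2.69, -3.73 and -2.67 on the high-Chol diet. All high-Chol arrays were lower, replicate 2 by far, and the difference was -0.75 ± 0.30 (limma adjusted p = 0.221), or -0.40 without that array. Cyp2c66 had log2 signals of -3.03, -3.51 and -3.36 in normal chow, against -2.99, -3.02 and -1.22 on the high-Chol diet. Here replicate 3 stood apart, and the difference of 0.89 ± 0.48 (limma adjusted p = 0.318) was 0.30 without it.

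The Cyp2d subfamily, whose human counterpart oxidises many basic drugs, had all 5 genes lower in every high-Chol array than in any normal chow array, as were 13.7% of all genes. For Cyp2d10 the gap was small, from 7.71 on the lowest normal chow array to 7.70 on the highest high-Chol array. The median difference of the 5 genes was -0.50, with a range of -0.69 to -0.42. None passed the test at the adjusted threshold, and all 5 had an unadjusted limma p under 0.05, as did 8.83% of all genes in that direction. Cyp2d9, a male-predominant gene that hydroxylates testosterone, had log2 signals of 8.16, 8.24 and 8.39 in normal chow, against 7.88, 7.38 and 7.44 on the high-Chol diet.

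High-Chol replicate 1 was the nearest to normal chow for Cyp2d9, and the difference was -0.69 ± 0.18 (limma adjusted p = 0.111). Cyp2d22 had log2 signals of 5.14, 5.24 and 5.48 in normal chow, against 5.05, 4.37 and 4.45 on the high-Chol diet. Its difference was -0.66 ± 0.22 (limma adjusted p = 0.174), again with replicate 1 next to the normal chow arrays. Without high-Chol replicate 1, again with each diet on its own slide, both passed the test, Cyp2d9 at -0.85 (limma adjusted p = 0.0136) and Cyp2d22 at -0.87 (limma adjusted p = 0.017).

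The other members, Cyp2d10, Cyp2d13 and Cyp2d26, had differences of -0.42, -0.50 and -0.42. High-Chol replicate 1 alone, the array that the slide block uses for the diet, gave a median of -0.32 over the 5 Cyp2d genes, and none of them then had an unadjusted limma p under 0.05 (0.0725 to 0.367). Under median scaling, quantile normalization and normexp, which use all 6 arrays, the median was -0.74, -0.41 and -0.23 with all 5 below 0. Of the 9 Cyp2d probes that met the background condition, 8 had a difference below 0. The exception was a second probe of Cyp2d22, well above background on all 6 arrays, at 0.03. Because the probes of Cyp2d9 list transcripts of Cyp2d22, these genes are not independent measurements.

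**Figure D3:**
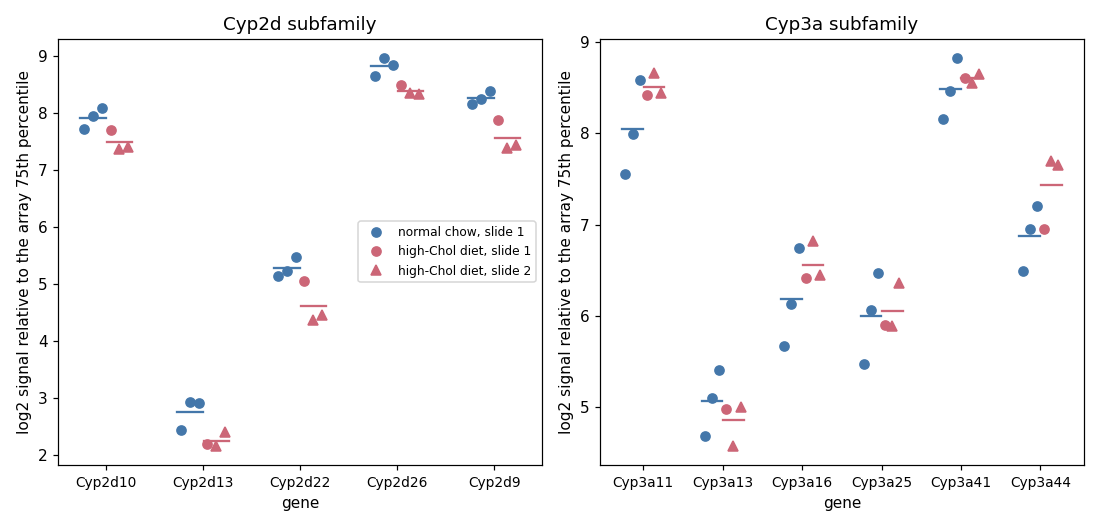
Log2 signal relative to the 75th percentile of the array (y axis) for the 5 Cyp2d and the 6 Cyp3a genes, each array as a symbol (blue normal chow, red high-Chol diet, circles slide 1, triangles slide 2) and the mean of each diet as a line. In Cyp2d every red symbol is below the blue symbols of its gene, as was so for 13.7% of all genes. In Cyp3a the symbols of both diets overlap for all 6 genes.

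Several Cyp2 subfamilies had a lone member. Cyp2e1, which oxidises ethanol and acetone in pericentral hepatocytes, had log2 signals of 7.46, 7.67 and 7.53 in normal chow, against 7.12, 7.25 and 7.49 on the high-Chol diet. The diets overlapped by 1 array, with a difference of -0.26 ± 0.16 (limma adjusted p = 0.371). Cyp2f2, a periportal enzyme that oxidises naphthalene, had log2 signals of 8.47, 8.47 and 8.26 in normal chow, against 8.01, 7.89 and 8.05 on the high-Chol diet.

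The diets did not overlap for Cyp2f2, with a difference of -0.42 ± 0.15 (limma adjusted p = 0.184). Blocking for slide gave -0.39. Of 8 other periportal markers, all 8 had a difference below 0 with a median of -0.28. Of 8 pericentral markers 5 were below 0 with a median of -0.17. Blocked for slide, the medians were -0.08 and -0.12, and the periportal markers Cdh1, Hal and Aldh1b1 were above 0. None of these 16 passed the limma test. The pericentral marker Axin2, a Wnt target, was over 1.5-fold higher at 0.80 (limma adjusted p = 0.0958), and at 0.42 when slide was blocked. The part of these markers in the values of Cyp2e1 and Cyp2f2 was not tested.

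Cyp2r1, a vitamin D 25-hydroxylase, had log2 signals of 1.5, 1.66 and 1.63 in normal chow, against 1.14, 1.62 and 1.47 on the high-Chol diet. The difference was -0.19 ± 0.17 (limma adjusted p = 0.536), with overlap between the diets. Cyp2u1, a fatty acid hydroxylase, had log2 signals of 0.41, -0.17 and 0.30 in normal chow, against 0.08, -0.56 and -0.11 on the high-Chol diet. Its diets also overlapped, and its difference of -0.38 ± 0.24 (limma adjusted p = 0.377) was -0.10 under the slide block and -0.20 without high-Chol replicate 2.

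Cyp2g1, known from the olfactory mucosa, had log2 signals of -2.09, -1.23 and -0.23 in normal chow, against -1.97, -2.28 and -1.88 on the high-Chol diet. The normal chow arrays were widely spread, and the difference of -0.86 ± 0.44 (limma adjusted p = 0.295) was -0.38 without normal chow replicate 3. Cyp2s1, an extrahepatic enzyme, had log2 signals of -3.66, -2.95 and -3.35 in normal chow, against -3.41, -3.17 and -2.74 on the high-Chol diet. The diets overlapped for Cyp2s1, with a difference of 0.21 ± 0.25 (limma adjusted p = 0.634) that was below 0 under median scaling, quantile normalization and normexp.

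The Cyp2j enzymes form epoxides of arachidonic acid. Cyp2j6 had log2 signals of 2.74, 2.51 and 3.00 in normal chow, against 2.29, 1.62 and 2.10 on the high-Chol diet. All high-Chol arrays were lower, and the difference was -0.75 ± 0.23 (limma adjusted p = 0.148). Without high-Chol replicate 1, and so with diet and slide not separable, it was -0.89 (limma adjusted p = 0.0413). The other 4 members had differences of -0.23 for Cyp2j5, -0.09 for Cyp2j9, 0.08 for Cyp2j13 and 0.33 for Cyp2j11. Blocked for slide, all 5 Cyp2j genes were below 0, with a median of -0.32, Cyp2j11 at -0.32 and Cyp2j13 at -0.10.

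In the Cyp3a subfamily, the main target of PXR and the mouse counterpart of the chief human drug-metabolizing P450, 5 of 6 genes had a difference above 0 with a median of 0.25. This became 3 of 6 and 0.04 without normal chow replicate 1, and 4 of 6 and 0.10 when slide was blocked. None passed the limma test, and 0 had an unadjusted p under 0.05. Cyp3a11, which oxidises steroids, bile acids and many drugs, had log2 signals of 7.55, 7.99 and 8.59 in normal chow, against 8.42, 8.67 and 8.44 on the high-Chol diet. The highest normal chow array lay above 2 of the high-Chol arrays, and the difference was 0.47 ± 0.27 (limma adjusted p = 0.345), or 0.22 without normal chow replicate 1 and 0.74 without normal chow replicate 3.

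Cyp3a44 had log2 signals of 6.49, 6.95 and 7.20 in normal chow, against 6.95, 7.70 and 7.65 on the high-Chol diet. High-Chol replicate 1 equalled the middle normal chow array, and the difference of 0.55 ± 0.27 (limma adjusted p = 0.285) was 0.07 with slide as a block. The remaining differences were 0.38 for Cyp3a16, 0.12 for Cyp3a41, 0.05 for Cyp3a25 and -0.21 for Cyp3a13. Under median scaling 3 of the 6 Cyp3a genes were above 0, with a median of 0.01, and under normexp all 6 were, with a median of 0.54.

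Of the 6 members known as female-predominant in mouse liver (Cyp2a4, Cyp2b9, Cyp2b13, Cyp3a16, Cyp3a41 and Cyp3a44), all were well above background on all 6 arrays of these male mice. Mean log2 levels in normal chow were 8.48 for Cyp3a41, 8.14 for Cyp2a4, 6.88 for Cyp3a44 and 6.18 for Cyp3a16. They were 1.01 for Cyp2b9 and -0.01 for Cyp2b13. Probes of Cyp2a4, Cyp2b9 and Cyp2b13 list transcripts of other genes, and the probes of Cyp3a41 and Cyp3a44 were placed at the same locus. The tested probes of Cyp3a16, Cyp3a41 and Cyp3a44 list no other gene. What lies behind these levels was not tested. The differences of the 6 ranged from -0.67 to 0.55, with 3 above and 3 below 0.

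Probes of a gene could be compared for 15 genes with more than 1 above background, and all probes had the same sign for 14 of them. The gap between the lowest and the highest probe of a gene was 0.02 to 1.13 with a median of 0.20, and in 7 genes it exceeded the size of the median difference of the 43 genes. The largest disagreement was for Cyp3a44, whose brightest probe gave 0.55 and whose other, much dimmer probe gave 1.69. For Cyp2j13 the brightest probe gave 0.08 and a dim one 0.97. The dim probes of Cyp3a44 and Cyp2j13 and the dimmer Cyp2c38 probe met the background condition through the high-Chol diet alone. They were higher on that diet, so their values and signs are given as a description. With slide as a block the dim probe gave 0.19 for Cyp3a44 and 0.71 for Cyp2j13.

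**Figure D4:**
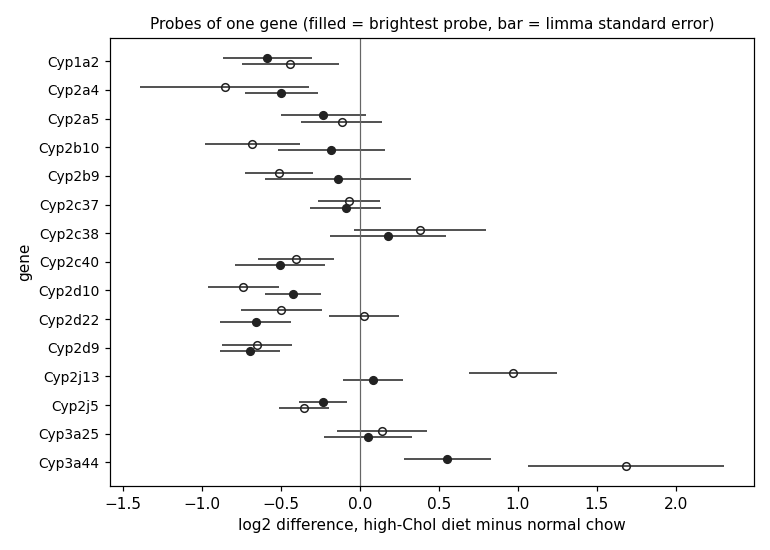
Log2 difference between the diets (x axis) for each probe of the 15 genes with several probes above background, the brightest probe filled and others open, with the limma standard error as a bar. Probes of Cyp2d9 lie together near -0.7, whereas those of Cyp2d22, Cyp2j13 and Cyp3a44 lie apart.

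The partners on which P450 activity depends were described from lists. Of 14 genes for electron donors and haem, 11 had a difference below 0 with a median of -0.14, and 0 passed the limma test. Alas1, the rate-limiting enzyme of haem synthesis, had log2 signals of 6.52, 7.13 and 8.08 in normal chow, against 4.69, 5.04 and 6.76 on the high-Chol diet. High-Chol replicates 1 and 2 were low and replicate 3 lay within the normal chow range, and the difference was -1.74 ± 0.61 (limma adjusted p = 0.183). Por, the reductase that supplies electrons to these enzymes, had a difference of -0.75 ± 0.35 (limma adjusted p = 0.26), and Hmox1, which degrades haem, one of 0.80 (limma adjusted p = 0.128).

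Of 18 receptors and transcription factors measured, 16 had a difference below 0 with a median of -0.33, 7 lay wholly lower and 0 passed the limma test, where 52.2% of all genes were below 0 and 13.7% lay wholly lower. The difference was -0.28 for Ahr, the aryl hydrocarbon receptor, -0.43 for Nr1i3, which encodes CAR, and -0.38 for Nr1i2, which encodes PXR. Onecut1 and Cebpa, transcription factors of hepatocytes, had differences of -1.14 and -1.02 (limma adjusted p = 0.131 and 0.151), and Foxa2, a pioneer factor of hepatocytes, was at -0.76 with the diets not overlapping (limma adjusted p = 0.153).

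Dbp, a clock-controlled factor that acts on several P450 genes, had log2 signals of 6.57, 6.49 and 6.80 in normal chow, against 0.86, 0.86 and 5.64 on the high-Chol diet. Its level thus split the high-Chol arrays, with replicate 3 near normal chow and the other two far below, and the difference of -4.17 ± 1.21 had a limma adjusted p of 0.134. Its relatives Tef and Hlf, at -1.80 and -1.06, had the same 2 arrays lowest. So did Alas1, Por, Onecut1 and Cish (described below), with replicate 3 nearer normal chow or within its range. The split ran across the slides, and its part in the P450 values was not tested.

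Of 13 other measured targets of these receptors, 6 had a difference above 0 and 7 below, and 1 rose: Gadd45b, a stress-response gene, at 2.84 ± 0.45 (limma adjusted p = 0.0254). Others over 1.5-fold did not pass the test and lay on both sides of 0. Gsta1, a glutathione transferase, was at 0.69 and the export pump Abcc4 at 0.71, whereas the export pump Abcc2 was at -0.60, the uptake transporter Slco1a4 at -0.69 and Papss2, which makes the donor for sulfation, at -0.90. Blocked for slide, Abcc4 was at 0.25 and Papss2 at 0.02. The diets did not overlap for Gsta1 and Abcc2. Of 8 measured regulators of sex-biased expression, 4 had a difference above 0 and 0 passed the test, with Cish, a feedback inhibitor of growth hormone signalling, at -1.88 (limma adjusted p = 0.138) and Bcl6, a transcriptional repressor, at 0.62. The 3 macrophage markers that rose were Cd68, Marco and Lyzs. The median difference was -0.35 for the hepatocyte markers, beside -0.21 for the 43 P450 genes, and the part of this shift in the P450 values was not tested.

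The remaining cell types were compared in the same way. The median was 0.23 for 6 endothelial markers, of which 0 passed the limma test, and 0.37 for 7 stellate cell markers, of which Col1a1 rose. It was -0.47 for 5 cholangiocyte markers and 0.69 for 6 lymphocyte markers, of which 0 passed. Blocked for slide, the median was 0.29 for endothelial, 0.51 for stellate cell, -0.30 for cholangiocyte and 0.13 for lymphocyte markers. Of 3 measured neutrophil markers S100a8 and S100a9 rose, by 3.21 and 2.90.

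**Figure D5:**
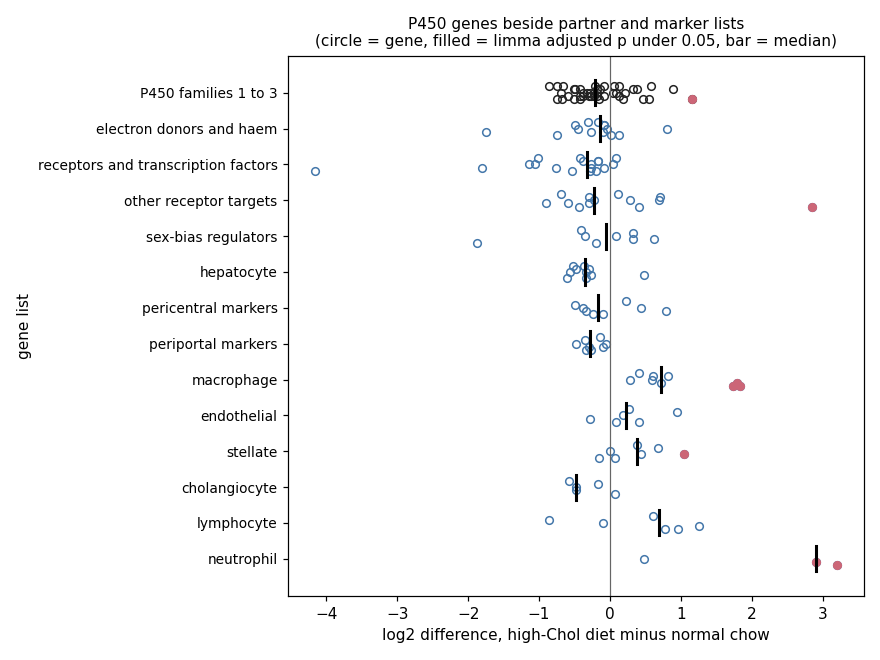
Log2 difference between the diets (x axis) for the 43 P450 genes and for each gene of the partner and cell type lists (y axis). Open circles are genes, filled circles genes with a limma adjusted p under 0.05, and black bars medians. The median of the P450 genes is -0.21, that of the hepatocyte markers -0.35 and that of the macrophage markers 0.71.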

How the data were processed

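Liver RNA of male apoE-KO mice was measured on 3 arrays per diet. The authors deposited the scanner output, with spot intensity values read and corrected for background in Agilent Feature Extraction (9.5 for slide 1, 9.1 for slide 2, and 9.1 per the labels) but not yet scaled to each other. They also deposited log2 values, a single value for each probe in each diet, after normalization and filtering in Gene Spring, whose scale and centring are not stated. It held 40 of the 43 tested probes and served as an alternative, without a test.

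The log2 of the background-subtracted intensity was taken minus the 75th percentile of each array over the non-control spots. Outlier spots were left out, and 0 member spots were marked as outliers or saturated. Probes entered when every array of 1 diet or both was well above background, and each gene was read from its brightest probe. limma 3.58.1 in R 4.3.3 compared the diets over 16730 genes without covariates, and p-values were adjusted by Benjamini-Hochberg with calls made below 0.05. The step was tested on simulated data. The number of arrays, 3 per diet, limits the precision. Array names were used, and 39 of the 43 tested probes matched RefSeq by accession, where Cyp3a41 is now Cyp3a41a and Cyp2c44 is Cyp2c23. Gene symbols used for matching are from GRCm38.p6.

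The members, gene lists and alternatives were chosen with earlier results of these data known. All members could be named with a difference. Full values were given for 21: members called, the member with the largest difference in each subfamily, members without overlap and over 1.5-fold, and prototypes (Cyp1a1, Cyp1a2, Cyp1b1, Cyp2b10, Cyp2c29, Cyp2c70, Cyp2e1, Cyp2f2, Cyp2r1 and Cyp3a11). Partner genes and zonation markers were named when called, over 1.5-fold or needed for their role, and markers of cell types when called. Alternatives were normexp (offset 50), median and quantile scaling, other probe filters and summaries, outlier spots kept, slide as a block, leaving out each array, and the methods' t-test.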

Additional observations from a re-analysis of the deposited data

How the results depend on the processing

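No P450 gene fell under any alternative that tested all 6 arrays with Benjamini-Hochberg adjustment. The number that rose went from 1 to 0 with normexp, median scaling, quantile normalization, no filter on dim probes, the filter requiring all 6 arrays (which leaves Cyp1b1 out), slide as a block and the methods' t-test after Benjamini-Hochberg, and was 0 to 2 with each array left out. The number that fell was 0 to 4 with each array left out, the 4 without high-Chol replicate 1, when diet and slide cannot be told apart, and 5 by the methods' t-test unadjusted. At an unadjusted limma p under 0.05 the number lower was 9, beside 8.83% of all genes. It was 0 with normexp (beside 0.233%), 14 with median scaling (beside 17%) and 5 with quantile normalization (beside 8.91%). Without the filter it was 3 (beside 4.57%) and when blocked for slide 3 (beside 3.45%). With each array left out it was 2 to 10 (beside 3.84% to 12.2%). The number over 1.5-fold higher as fitted was 2, of which Cyp1b1 has a bound of only 1.2-fold, beside 15.4% of all genes. It was 4 with quantile normalization (beside 12.6%), 1 with the filter on all 6 arrays (beside 9.59%) and 1 with slide as a block (beside 7.98%). Of 59 probes tested each by itself it was 4 (beside 14.1% of all probes tested). In the deposited table it was 1 (beside 9.77% of its probes), and with each array left out 1 to 5 (beside 12.8% to 25%). The number over 1.5-fold lower was 6 (14%, beside 5.84% of all genes), and 3 with normexp (6.98%, beside 10.9%), 15 with median scaling (34.9%, beside 16.6%), 10 of 59 probes, 14 in the deposited table, and 3 to 10 with each array left out. The median of the genes was -0.21, and -0.0331 with normexp, -0.0746 with quantile normalization, -0.45 with median scaling, -0.46 in the deposited table and -0.31 to -0.18 with each array left out. Minus the median of all genes it was -0.19, and 0.0736 with normexp, -0.0434 blocked for slide and -0.0569 with quantile normalization. The differences in the deposited table were offset by -0.243 from those on the 75th percentile scale for each of 40 genes, and 17.7% of its probes were over 1.5-fold lower.

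Of 338 values of the 21 genes under the alternatives, 301 kept their direction and their side of the threshold. In the deposited table, which has no test, kept meant within 1 standard error, and 10 moved further. Another 10 lost the call, all of them of Cyp1b1, the only gene called with all arrays. The other genes had no call to lose. A call was gained by 4, all without high-Chol replicate 1, when diet and slide cannot be told apart. The remaining 13 turned direction. With normexp these were Cyp1b1 (-0.69), Cyp2c70 (0.19), Cyp2e1 (0.0369) and Cyp2s1 (-0.47). With quantile normalization they were Cyp2c70 (0.0393) and Cyp2s1 (-0.0334). With median scaling Cyp2s1 was at -0.0246, and in the deposited table at -0.0308. With slide as a block they were Cyp2c29 (0.0384), Cyp2c70 (0.0791) and Cyp2s1 (-0.0933). With each array left out Cyp2b10 was at -0.48 to 0.16, the highest without high-Chol replicate 1, and by a dimmer probe Cyp2d22 was at 0.0271. Leaving out 1 array moved the difference of 13 of the 21 genes by over 1.5 times: Cyp1a1, Cyp1a2, Cyp2b10, Cyp2c29, Cyp2c65, Cyp2c66, Cyp2c70, Cyp2g1, Cyp2r1, Cyp2s1, Cyp2u1, Cyp3a11 and Cyp3a44. The cause was not tested.

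Over all genes, 488 were called, and 11 with slide as a block, 26 without the filter, 0 with normexp, and 42 to 3945 with each array left out, the highest without high-Chol replicate 1. Signals near background limit Cyp1b1, Cyp1a1 and Cyp2s1. No paired analysis was possible because nothing in the labels or files ties an array of one diet to one of the other.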

Other observations

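Besides the 43 genes chosen by name, 3 probes carried another name on the array although their accession now belongs to a family 2 gene. The probe of Cyp2d12 had log2 signals of 6.42, 6.76 and 6.84 in normal chow, against 6.34, 5.57 and 5.74 on the high-Chol diet. All high-Chol arrays were lower, with replicate 1 next to normal chow, and the difference was -0.79 ± 0.24 (limma adjusted p = 0.153). The probe of Cyp2d34 had a difference of -0.05 ± 0.17 (limma adjusted p = 0.882) with overlapping diets. The probe of Cyp2ab1 did not meet the background condition.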
